A study of Mus musculus with 10 samples.

Results

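The immediate-early AP-1 and EGR genes are described here as a set of 10 mouse genes, Fos, Fosb, Jun, Junb, Jund, Egr1, Atf3, Ier2, Ier3 and Klf6. Members were chosen by gene symbol, with earlier results of these data known. They make up 10 of the 18194 genes that the arrays named. They were covered by 16 probe sets, 13 on the first of 2 array designs and 3 on the second. All 10 were read on the first design, and none was lost to a filter on low signal.

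Immediate-early genes are transcribed within minutes of a stimulus, without the synthesis of new protein, and their transcripts and proteins are short-lived. FOS and JUN proteins pair through leucine zippers to form AP-1, which binds DNA in the promoters of many response genes, while EGR1 binds GC-rich DNA through zinc fingers. These genes respond to growth factors and to cellular stress, and they are known to be induced when tissues are taken apart with warm enzymes.

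The promoters of 8 members were in the RefSeq table of GRCm38.p6, and the 250 bases before the start annotated there were searched on both strands. The cAMP response core TGACGT was found in the windows of Fos and Atf3, against 6.47% of 32851 mouse windows of the same length. The related octamer TGACNTCA was found in those of Jun and Klf6, against 7.49% of all windows. These 4 windows are shown because they hold the sequence class that ATF, CREB and AP-1 proteins bind, with the matches in capitals, and for Fos also a TATAAA match. In mouse and human cells the Fos site is known to bind CREB, and the Jun octamer is known to bind JUN and ATF2.
Fos: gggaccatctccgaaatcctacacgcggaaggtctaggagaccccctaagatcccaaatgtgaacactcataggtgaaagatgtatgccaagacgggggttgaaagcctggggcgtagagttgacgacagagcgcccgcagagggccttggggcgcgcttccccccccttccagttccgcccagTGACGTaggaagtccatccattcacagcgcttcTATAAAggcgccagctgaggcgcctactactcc
Jun: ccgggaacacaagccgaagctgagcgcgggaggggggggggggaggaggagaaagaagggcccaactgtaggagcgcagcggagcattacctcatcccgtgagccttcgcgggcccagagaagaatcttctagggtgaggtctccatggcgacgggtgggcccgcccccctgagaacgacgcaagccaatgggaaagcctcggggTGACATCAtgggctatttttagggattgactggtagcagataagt
Atf3: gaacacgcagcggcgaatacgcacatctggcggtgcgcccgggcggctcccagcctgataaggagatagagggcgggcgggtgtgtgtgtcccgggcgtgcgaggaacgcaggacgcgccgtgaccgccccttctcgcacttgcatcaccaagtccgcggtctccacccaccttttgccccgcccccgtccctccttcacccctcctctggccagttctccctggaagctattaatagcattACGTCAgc
Klf6: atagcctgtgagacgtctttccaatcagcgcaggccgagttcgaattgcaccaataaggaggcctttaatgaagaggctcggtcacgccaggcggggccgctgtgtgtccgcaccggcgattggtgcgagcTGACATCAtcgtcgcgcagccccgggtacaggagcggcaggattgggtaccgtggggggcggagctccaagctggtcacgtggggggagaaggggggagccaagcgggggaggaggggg
The Fos window lies on the plus strand at chr12:85473640-85473889, its core at bases 66 to 61 before the start and its TATAAA at bases 33 to 28. The Jun window lies on the minus strand at chr4:95052223-95052472, with the octamer at bases 45 to 38. The Atf3 window lies on the minus strand at chr1:191183334-191183583, and its core, read from the opposite strand, covers bases 8 to 3. The Klf6 window lies on the plus strand at chr13:5861239-5861488, with the octamer at bases 119 to 112. None of the 4 core and octamer matches overlapped another motif. The EGR motif GCGNGGGCG was found only in the Fosb window among the members and in 4.70% of all windows, and TATAAA, found only for Fos, was in 12.4%. The AP-1 heptamer TGANTCA, in 6.75% of all windows, and the CArG box, in 1.47%, were in none of the 8 member windows. The Fosb window, on the minus strand at chr7:19310046-19310295, overlaps the gene's annotated span, which ends at 19310118. Its EGR match, at bases 50 to 42, lies in that overlap. Sites of Egr1 and Ier2, and sites further than 250 bases before a start, were not searched. A match describes letters in a window and shows no binding.

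The study profiled meiotic stages in C57BL/6 males. It used 5 groups of 2 samples. The spermatogonia were Percoll fraction 2 of 8-day testes, the leptotene/zygotene spermatocytes fraction 5 of 12-day testes, and the pachytene spermatocytes fraction 8 of 15-day testes. The last groups were whole testis and a mixture of 11 somatic tissues, both of 15-day mice (skin, spleen, muscle, kidney, colon, intestine, stomach, liver, lung, heart and brain). Each fraction is enriched and not pure, and stage changes together with age. According to the labels, a mixture of collagenase, trypsin and hyaluronidase was used to take the testes apart before the gradient. The same text stands in the labels of all samples, and no separate account of how whole testis and somatic tissues were handled is given in the sources used here. Of the 2 samples of a group, 1 was hybridised to each design, so each probe set had 1 array per group. The differences below therefore carry no test, and the number of arrays limits their precision.

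Signals are deposited intensities scaled to the 2% trimmed mean within a design. The floor, below which a signal was read as no more than the floor, was 87.3 on the first design and 47.0 on the second. The error of a difference was estimated from 100 probe sets present on both designs, and its 95% limit lay between 0.35 and 0.57 on the log2 scale over the 7 main comparisons. The limit reflects the gap between the designs in these 100 probe sets. Whether the 2 samples of a group were separate preparations is not given, so it may not cover the spread between preparations or animals. A gene is said to have risen or fallen where it differed by at least 4-fold, and to be higher or lower where it differed beyond that limit.

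Markers gave a mixed check of the fraction labels. All 9 pachytene markers rose in the pachytene fraction over the leptotene/zygotene fraction, and none read on the first design was above the floor in the spermatogonia fraction. Of the 11 spermatogonial markers 9 were higher in the leptotene/zygotene fraction than in the spermatogonia fraction and 1 was lower. Of the 8 leptotene and zygotene markers 7 were higher there, with a median log2 difference of 1.39, and none was lower. Of all 12928 genes measured 3129 were higher and 2882 lower. All 15 Sertoli markers read, all 6 Leydig markers read and all 6 peritubular markers were above the floor in the spermatogonia fraction. In the leptotene/zygotene fraction 15, 6 and 5 of them were, and in the pachytene fraction 14, 5 and 5. The fractions are called here by their labels.

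Signals of all 10 members read highest in the spermatogonia fraction and next in the leptotene/zygotene fraction, and those of 9 read lowest in whole testis. Fosb was under the floor in whole testis and the somatic mix, which have no order for it. The gap between spermatogonia and leptotene/zygotene cells was within the error limit for Jund, Egr1, Atf3 and Klf6, and turned for Atf3 and Jund with the values as deposited. For Klf6 a probe set of the second design put it beyond the limit. Against whole testis, all 10 rose in the spermatogonia fraction, 9 in the leptotene/zygotene fraction and 5 in the pachytene fraction. These counts changed under other floors and probe set rules. In bulk samples, fewer cells of a type and less RNA per cell cannot be told apart. Fraction and any difference in dissociation cannot be told apart in the comparisons with whole testis. Nor can age for the 8-day and 12-day fractions, since whole testis was of 15-day mice.

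Fos encodes the founding partner of JUN in AP-1. Its signal was 11645 in spermatogonia, 9032 in leptotene/zygotene and 5015 in pachytene cells, 154 in whole testis and 601 in the somatic mix. All 3 fractions stood above both tissues. Against whole testis Fos rose 75.5-fold in spermatogonia (log2 difference 6.24), 58.6-fold in leptotene/zygotene (5.87) and 32.5-fold in pachytene cells (5.02). It ranked 1 among all genes measured in each of these comparisons. Fosb, a FOS relative that also pairs with JUN proteins, had signals of 2080, 1582 and 493 in spermatogonia, leptotene/zygotene and pachytene cells. It lay under the floor in whole testis (60.4) and in the somatic mix (67.0). It rose at least 23.8-fold in spermatogonia, at least 18.1-fold in leptotene/zygotene and at least 5.65-fold in pachytene cells, over whole testis.

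Jun, which encodes the main DNA-binding partner of FOS, read 3203 in spermatogonia, 2207 in leptotene/zygotene cells, 603 in pachytene cells, 331 in whole testis and 737 in the somatic mix. It rose 9.67-fold in spermatogonia and 6.67-fold in leptotene/zygotene cells over whole testis. It was higher in pachytene cells than in whole testis by 0.86 on the log2 scale, and the pachytene and somatic mix signals differed by less than the error limit (-0.29). The other Jun probe set gave a 4-fold call in pachytene cells over whole testis (3.21) and a difference of opposite sign over the somatic mix (0.86), beyond the limit of 0.61. Junb, whose protein can weaken JUN activity in some promoters, read 1160, 711 and 204 in spermatogonia, leptotene/zygotene and pachytene cells, with 10.4 in whole testis, under the floor, and 121 in the somatic mix. It rose at least 13.3-fold in spermatogonia and at least 8.15-fold in leptotene/zygotene cells, and was at least 2.34-fold higher in pachytene cells, over whole testis. Jund, the JUN gene with steady expression in many cell types, read 3005 in spermatogonia, 2792 in leptotene/zygotene cells, 947 in pachytene cells, 728 in whole testis and 1010 in the somatic mix. Jund spanned the narrowest range of the 10. It rose 4.13-fold in spermatogonia and was 3.84-fold higher in leptotene/zygotene cells over whole testis, and its pachytene difference of 0.38 lay within the limit.

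Egr1, a zinc finger transcription factor of the early growth response, read 12019 in spermatogonia, 9455 in leptotene/zygotene cells, 2692 in pachytene cells, 598 in whole testis and 757 in the somatic mix. The fractions lay above both tissues, which differed from each other by less than the limit. Egr1 rose 20.1-fold in spermatogonia, 15.8-fold in leptotene/zygotene and 4.50-fold in pachytene cells over whole testis. Atf3, a stress-induced ATF/CREB family factor, read 1787, 1716 and 464 in spermatogonia, leptotene/zygotene and pachytene cells, 72.1 in whole testis, under the floor, and 160 in the somatic mix. It rose at least 20.5-fold, at least 19.7-fold and at least 5.32-fold in spermatogonia, leptotene/zygotene and pachytene cells over whole testis.

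Ier2, an early response gene for a nuclear protein, read 4005 in spermatogonia, 2527 in leptotene/zygotene cells, 467 in pachytene cells, 143 in whole testis and 501 in the somatic mix. It rose 28.1-fold in spermatogonia and 17.7-fold in leptotene/zygotene cells over whole testis, and its difference of 1.71 in pachytene cells was higher without reaching 4-fold. Ier3, a regulator of cell survival under stress, read 5492, 3142 and 509 in spermatogonia, leptotene/zygotene and pachytene cells, 76.1 in whole testis, under the floor, and 328 in the somatic mix. It rose at least 62.9-fold, at least 36.0-fold and at least 5.83-fold in spermatogonia, leptotene/zygotene and pachytene cells over whole testis, and ranked 2 of 13969 genes in spermatogonia. Klf6, a zinc finger factor of the Krüppel-like family, read 966 in spermatogonia, 792 in leptotene/zygotene cells, 92.3 in pachytene cells, 75.5 in whole testis, under the floor, and 150 in the somatic mix. It rose at least 11.1-fold in spermatogonia and at least 9.08-fold in leptotene/zygotene cells over whole testis, whereas its pachytene signal was just above the floor, at a lower bound of 0.08 on the log2 scale.

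**Figure D1:**
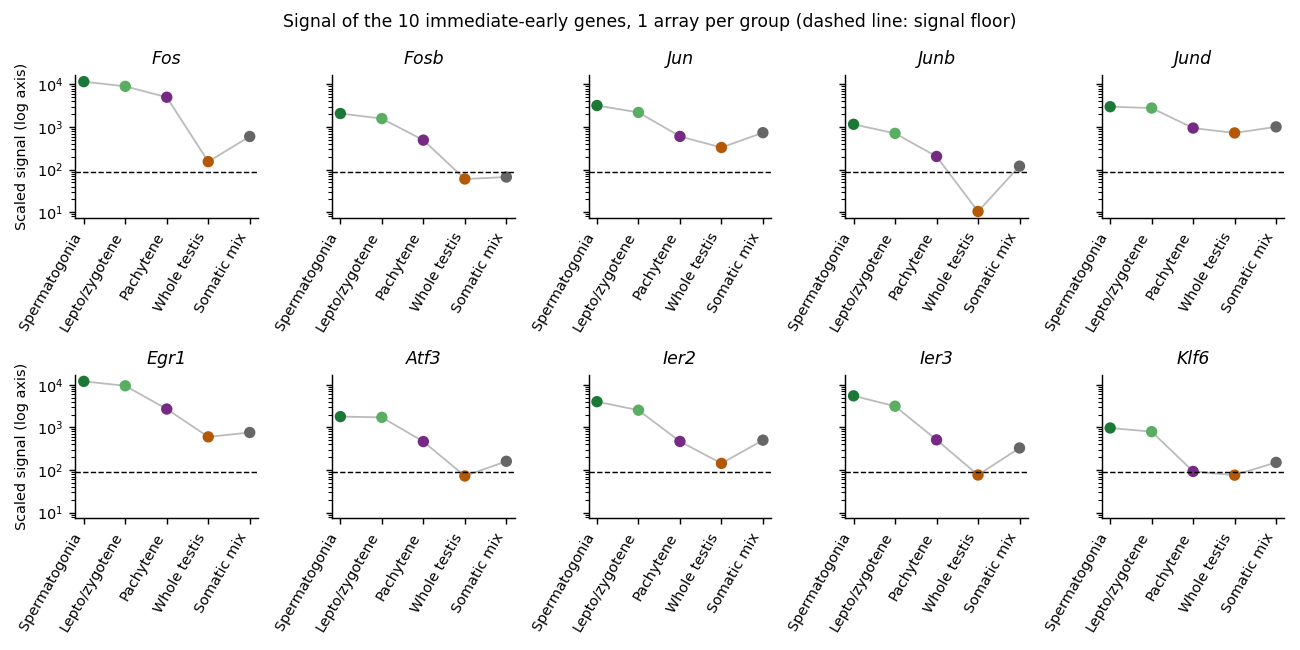
Scaled signal on a log axis of each of the 10 genes (panels) in spermatogonia, leptotene/zygotene and pachytene fractions, whole testis and somatic mix; each point is 1 array of the first design and the dashed line is the floor of 87.3. Every gene reads highest in spermatogonia, by less than the error limit over leptotene/zygotene cells for 4 genes, and 9 read lowest in whole testis, while Fosb is under the floor in both tissues. Fos is at 5015 in pachytene cells and Klf6 at 92.3.

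The members' counts over whole testis stood above the background of all genes. Because the members were chosen with earlier results of these data known, this is a description and no independent evidence. In spermatogonia over whole testis 1.98% of 13969 genes rose and 5.23% fell, and 10 of 10 members rose, with a median log2 difference of 4.34 (20.3-fold) against 0.00 over all genes. In leptotene/zygotene cells over whole testis 1.20% rose and 4.22% fell, and 9 members rose, with a median of 4.06. With the mean over probe sets Klf6 was under 4-fold, at 1.51 in spermatogonia and 1.35 in leptotene/zygotene cells. Jund in spermatogonia (2.05) lay close to 4-fold, and was under it with log2 of the signal plus the floor. In pachytene cells over whole testis 2.35% rose and 4.43% fell, and 5 members rose, with a median of 1.94 against -0.18 over all genes. The 5 that rose were Fos, Fosb, Egr1, Atf3 and Ier3. This count was 2 with the floor raised 1.5 times and 2 with log2 of the signal plus the floor. Another 3, Jun, Junb and Ier2, were higher beyond the limit, where 3577 of all 13850 genes were higher beyond it and 5302 lower. Among the 10 genes with the highest differences in spermatogonia over whole testis 5 were members, as were 9 of the highest 50. The 3 comparisons share the whole testis array and are not independent.

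**Figure D2:**
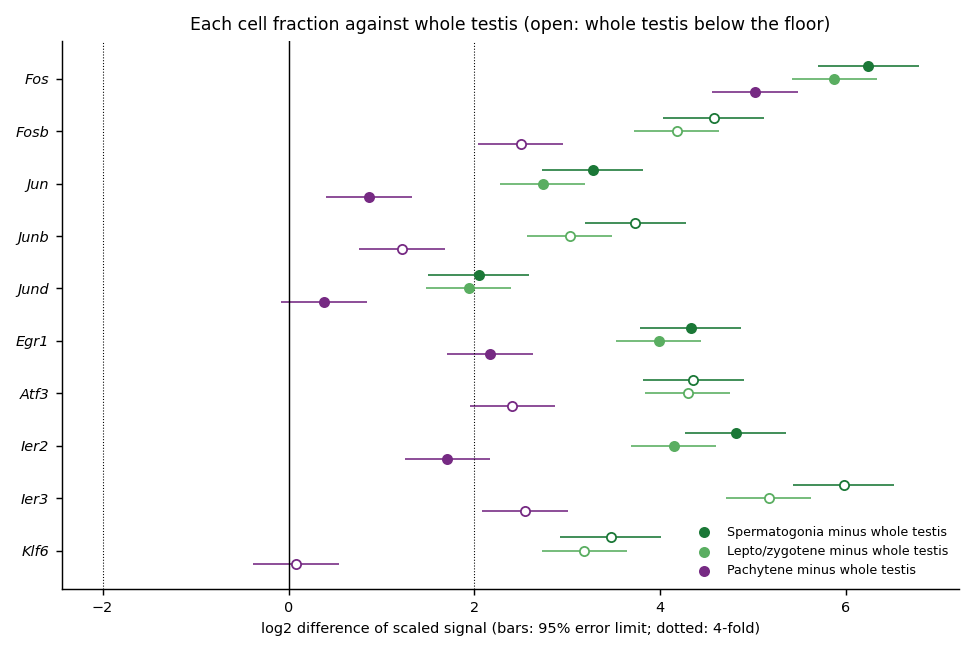
Log2 difference of scaled signal over whole testis for each gene in spermatogonia, leptotene/zygotene and pachytene fractions; bars are the 95% error limit, open points are lower bounds because whole testis was under the floor, and dotted lines mark 4-fold. Every point lies above 0, from 0.08 for Klf6 in pachytene cells to 6.24 for Fos in spermatogonia.

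Between the fractions, the step at pachytene was wide and the earlier step narrow. In leptotene/zygotene cells over spermatogonia no member changed 4-fold, where 0.309% of genes rose and 0.278% fell. The differences of all 10 lay below 0, with a median of -0.38 against 0.02 over all genes. With the values as deposited those of Atf3 (0.12) and Jund (0.07) lay above 0. Ier3 (-0.81), Junb (-0.71), Ier2 (-0.66), Jun (-0.54), Fosb (-0.39) and Fos (-0.37) were lower beyond the limit of 0.35. Of the 12928 genes measured 2882 were lower beyond the limit and 3129 higher. Egr1 (-0.35), Klf6 (-0.29), Jund (-0.11) and Atf3 (-0.06) stayed within the limit, Egr1 by a narrow margin. For Klf6 the probe set 1447448_s_at of the second design gave -0.77, beyond the limit.

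In pachytene over leptotene/zygotene cells all 10 members were lower beyond the limit of 0.41, with a median of -1.84 against -0.23 over all genes. Of the 13531 genes measured 5972 were lower beyond the limit and 4069 higher. Klf6 fell most (-3.10), followed by Ier3 (-2.63) and Ier2 (-2.44). These 3 were the members past 4-fold, and over all genes 8.77% rose and 9.36% fell. With the values as deposited 8 members fell. Atf3 (-1.89), Jun (-1.87), Egr1 (-1.81), Junb (-1.80), Fosb (-1.68) and Jund (-1.56) lay close under 4-fold. Fos had the smallest difference, -0.85. The members' summed signal on the first design was 11486 in pachytene cells and 33957 in leptotene/zygotene cells.

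In pachytene cells over spermatogonia 7 members fell, where 10.1% of genes rose and 12.1% fell. Ier3 (-3.43), Klf6 (-3.39), Ier2 (-3.10), Junb (-2.51), Jun (-2.41), Egr1 (-2.16) and Fosb (-2.08) passed 4-fold. Atf3 (-1.95), Jund (-1.67) and Fos (-1.22) were lower beyond the limit of 0.46. Of the 13727 genes measured 5873 were lower beyond the limit and 4099 higher. The members' median was -2.28. This comparison shares its arrays with the steps before it, so its values are their sum and no separate evidence.

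**Figure D3:**
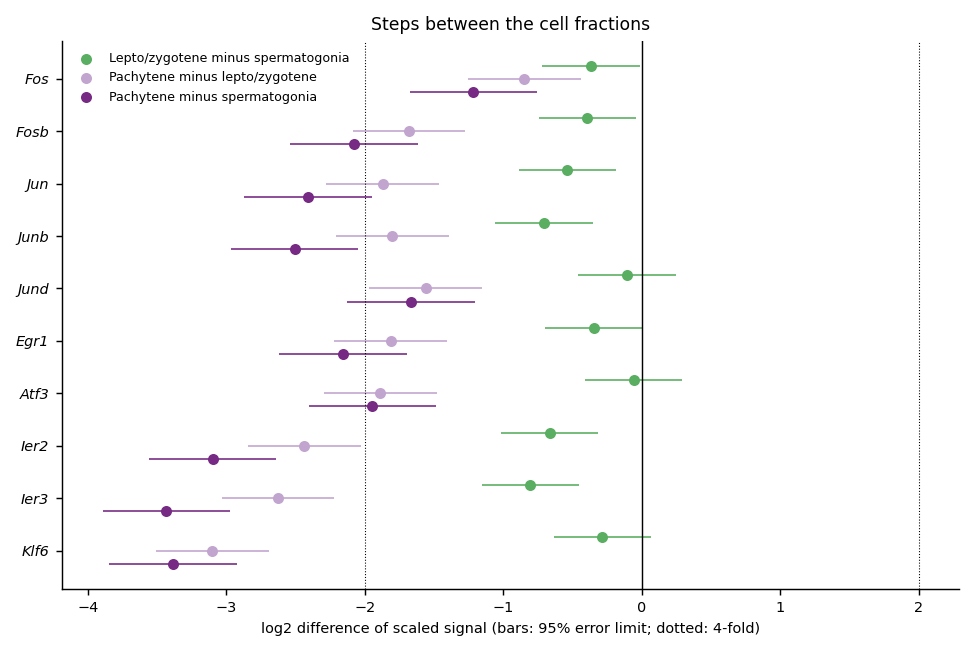
Log2 difference of scaled signal for each gene in leptotene/zygotene over spermatogonia, pachytene over leptotene/zygotene and pachytene over spermatogonia; bars are the 95% error limit and dotted lines mark 4-fold. The earlier step lies between -0.81 and -0.06, and the pachytene step between -3.10 for Klf6 and -0.85 for Fos.

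The members differed in where the pachytene fraction stood. On the log2 scale between whole testis and spermatogonia, the pachytene signal of Fos stood at 80.5% of the span. That of Egr1 stood at 50.1%, of Ier2 at 35.6%, of Jun at 26.4% and of Jund at 18.6%. For Jun this share depends on the probe set, and the other one gave 55.5%. The other 5 members have no such share, since whole testis was under the floor for them. By root mean square distance between centred log2 profiles over the 5 arrays, Egr1 and Atf3 were the closest pair (0.20) and Fos and Jund the furthest apart (1.80). When the 5 groups were put in order for each gene, 9 of the 40 steps between neighbours were measured on both sides and lay within the limit. They were spermatogonia and leptotene/zygotene cells for Jund, Egr1, Atf3 and Klf6, pachytene cells and the somatic mix for Jun, Jund and Ier2, pachytene cells and whole testis for Jund, and whole testis and the somatic mix for Egr1. The steps to whole testis for Junb and Klf6 are lower bounds that did not reach the limit, and for Fosb both tissues were under the floor.

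In whole testis over the somatic mix none of the 9 measured members changed 4-fold, where 7.24% of genes rose and 5.82% fell, and their median was -0.87 against -0.07 over all genes. Fos (-1.96), Ier3 (-1.91), Ier2 (-1.81), Jun (-1.15), Atf3 (-0.87) and Klf6 (-0.79) were lower beyond the limit of 0.57, those of Ier3, Atf3 and Klf6 being bounds. Junb (-0.47, a bound), Jund (-0.47) and Egr1 (-0.34) did not pass it, and Fosb was under the floor in both. Of the 15029 genes measured 4632 were lower beyond the limit and 4359 higher. The fractions were then set against the somatic mix, a comparison added after the values were seen. In spermatogonia over the somatic mix 9 members rose (3.92% of genes rose and 6.63% fell), with a median of 3.37, among them Fosb at least 23.8-fold, Fos 19.4-fold, Ier3 16.7-fold and Egr1 15.9-fold. Jund was 2.97-fold higher. In leptotene/zygotene cells over the somatic mix 8 rose (5.38% of genes rose and 7.38% fell), with a median of 2.91, and Jun and Jund were higher without passing 4-fold. In pachytene cells over the somatic mix Fos (8.35-fold) and Fosb (at least 5.65-fold) rose (11.6% of genes rose and 12.3% fell), and the median was 0.69. Egr1 (1.83), Atf3 (1.54), Junb (0.76) and Ier3 (0.63) were higher beyond the limit of 0.61, Klf6 was lower (-0.70), and Jun, Jund and Ier2 did not pass it. Of the 15079 genes measured 4245 were higher beyond the limit and 6321 lower.

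Of the control probe sets, that for 18S ribosomal RNA read highest in spermatogonia and lowest in whole testis, as most members did. Gapdh and beta-actin read highest in the somatic mix, but both were lower in pachytene than in leptotene/zygotene cells. Their log2 differences at that step were -1.61 and -1.85 for Gapdh on the 2 designs, and -1.13 and -1.18 for beta-actin. The members' median there was -1.84. The 3' probe set for 18S ribosomal RNA read 2174 in spermatogonia, 1801 in leptotene/zygotene cells, 427 in pachytene cells, 176 in whole testis and 526 in the somatic mix on the first design. On the second design it read 2716, 1814, 342, 154 and 573 in the same order. It was thus 12.3-fold and 17.6-fold higher in spermatogonia than in whole testis on the 2 designs. The 3' signal of Gapdh on the first design was 6425, 6245 and 2047 in spermatogonia, leptotene/zygotene and pachytene cells, 4646 in whole testis and 10363 in the somatic mix. Beta-actin was also highest in the somatic mix (6606), and read 5125, 4144 and 1899 in the fractions and 1496 in whole testis. The ratio of the 3' to the 5' probe set of Gapdh, a measure of RNA integrity, was 1.11, 1.07 and 1.49 in spermatogonia, leptotene/zygotene and pachytene cells, 4.33 in whole testis and 1.21 in the somatic mix. On the second design it was 1.13, 1.12, 1.52, 3.75 and 1.18. Whole testis stood apart in this ratio, and the somatic mix did not. The same ratio of beta-actin was 3.33, 3.18, 2.41, 5.22 and 1.88 in that order on the first design, and 3.40, 3.13, 2.88, 6.57 and 2.30 on the second. Whole testis was again highest, but the fractions lay above the somatic mix. The part of the controls and of these ratios in the members' values was not tested.

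Sertoli, Leydig, peritubular, stromal and endothelial marker sums were in the same order as the members over the 3 fractions. Unlike the members, they were lower in pachytene cells than in whole testis. The 15 Sertoli markers read summed to 49365 in spermatogonia, 44535 in leptotene/zygotene cells and 11387 in pachytene cells, 32612 in whole testis and 12975 in the somatic mix. In pachytene over leptotene/zygotene cells 10 of the 15 fell, and in spermatogonia over whole testis 3 of the 15 rose, with a median of 1.28. In pachytene cells over whole testis 11 of 14 measured were lower beyond the limit and none higher (median -1.35), where 8 members were higher. Of all 13850 genes measured there, 5302 were lower and 3577 higher. The 6 Leydig markers read summed to 9564, 5062 and 736 in spermatogonia, leptotene/zygotene and pachytene cells, 4026 in whole testis and 2116 in the somatic mix. The 6 peritubular smooth muscle markers summed to 18809, 7635 and 3490 in the 3 fractions in that order, 10992 in whole testis and 11618 in the somatic mix, and the 8 stromal markers to 25473, 15204, 10275, 17132 and 17893. Macrophage and blood markers ran the other way, summing to 824, 1988 and 4389 in the fractions, 3259 in whole testis and 10104 in the somatic mix, and C1qa was under the floor in spermatogonia (6.46). The 6 endothelial markers summed to 1339, 640 and 426 in spermatogonia, leptotene/zygotene and pachytene cells, 747 in whole testis and 2202 in the somatic mix. In the 3 fractions 5, 3 and 2 of them were above the floor. The part of these cells in the members' values was not tested.

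The 3 genes with several probe sets did not give 1 value each. The other Jun probe set, 1417409_at, read 5092, 3538 and 858 in spermatogonia, leptotene/zygotene and pachytene cells, 92.7 in whole testis and 473 in the somatic mix. Its log2 differences over whole testis were 5.78, 5.25 and 3.21 in the 3 fractions, against 3.27, 2.74 and 0.86 for the probe set read, 1448694_at. For Klf6 the probe set 1447448_s_at of the second design, hybridised with the other sample of each group, read 869, 511 and 44.8 in the fractions, 37.5 in whole testis and 117 in the somatic mix. It rose over whole testis in spermatogonia and in leptotene/zygotene cells (log2 differences of at least 4.21 and at least 3.44), and its pachytene and whole testis values were under the floor. The remaining Klf6 probe sets, 1427742_a_at, 1418280_at and 1459718_x_at, read at most 168, 94.5 and 89.3 on any array. The Jund probe set of the second design, 1440265_at, stayed between 40.6 and 78.8 on its 5 arrays, around the floor, and read 56.8 in spermatogonia and 65.3 in whole testis, a log2 difference of -0.20.

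**Figure D4:**
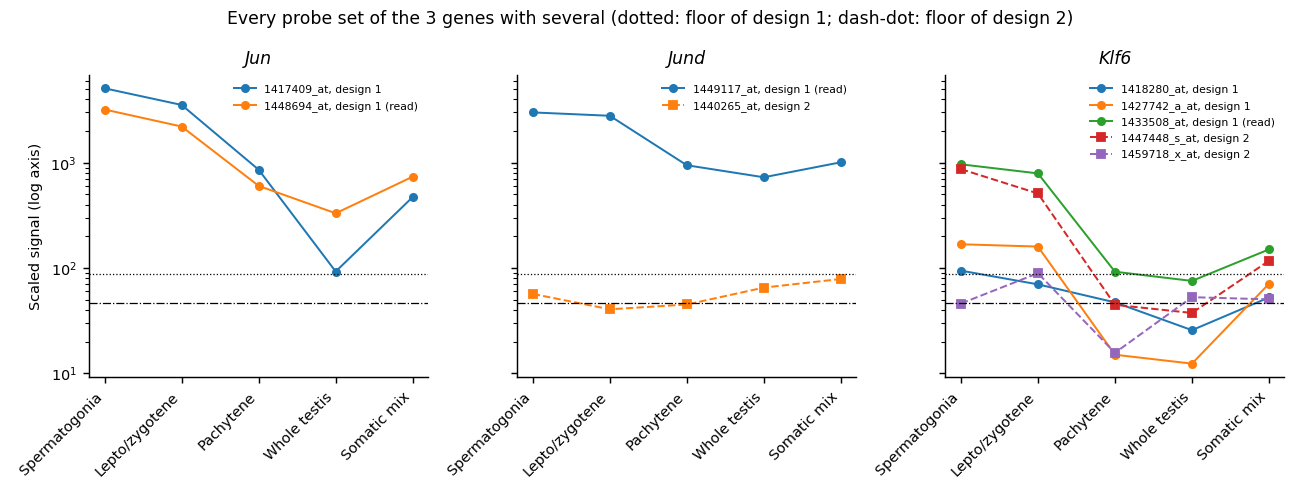
Scaled signal on a log axis of every probe set of Jun, Jund and Klf6 in spermatogonia, leptotene/zygotene and pachytene fractions, whole testis and somatic mix, 1 array per point; circles are the first design and squares the second, and the floors are drawn as dotted (87.3) and dash-dot (47.0) lines. The Jun probe sets part in whole testis (92.7 and 331). For Klf6, 1447448_s_at on the second design follows 1433508_at on the first, with a wider gap between spermatogonia and leptotene/zygotene cells.

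Other genes of the same response were set beside the members by lists, to be read against the 1.98%, 1.20% and 2.35% of all genes that rose over whole testis in spermatogonia, leptotene/zygotene and pachytene cells. These lists too were chosen with earlier results of these data known. Among 8 other EGR and NR4A genes measured, which are zinc finger and nuclear receptor factors of early responses, 6 rose in spermatogonia over whole testis (median 2.89), led by Nr4a1 (17.7-fold), Nr4a3 (17.5-fold) and Egr3 (at least 12.0-fold). Again 6 rose in leptotene/zygotene cells (median 2.38), and none in pachytene cells (median 0.24). Of 41 other early response genes measured 27 rose and 1 fell in spermatogonia over whole testis (median 2.37). Ccn1, a matricellular protein gene (at least 44.1-fold), Socs3, a cytokine signalling inhibitor (at least 37.4-fold), and Zfp36, whose protein promotes decay of AU-rich mRNAs (21.1-fold), led them. Of those measured in leptotene/zygotene cells 18 of 40 rose and 1 fell (median 1.60), and in pachytene cells 5 of 35 rose (median 0.21), with Socs3 (at least 9.57-fold), Cebpd (5.11-fold) and Arc (4.72-fold) at the top.

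The families around the members had smaller medians. Of 14 AP-1 and ATF partners measured 2 rose in spermatogonia over whole testis (median 0.88), Maff, a small MAF gene (at least 8.70-fold), and Atf4, a factor of the integrated stress response (6.27-fold). Of 13 KLF genes other than Klf6, 3 rose (median 1.11), Klf4 (12.5-fold), Klf2 (10.4-fold) and Klf9 (10.2-fold). None of the 19 upstream kinases and SRF factors measured, the signalling genes that switch on immediate-early promoters, rose or fell (median 0.45). In leptotene/zygotene cells over whole testis 2 of 13 partners, 3 of 13 KLF genes and none of the 19 upstream genes rose. In pachytene cells no partner or KLF gene rose, 1 KLF gene fell, and 4 of the 19 upstream genes fell (median -0.38).

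At the pachytene step the medians of the 5 lists were below 0, as the members' was. In pachytene over leptotene/zygotene cells 4 of 8 other EGR and NR4A genes fell (median -1.88), and 15 of 40 other early response genes fell while 1 rose (median -1.67). The medians of the KLF genes, the partners and the upstream genes were -1.69, -0.68 and -1.27. Gadd45g, a growth arrest gene (-3.70), and Id2, an inhibitor of helix-loop-helix factors (-3.70), fell most, and Dusp6, a phosphatase of ERK, fell at least 8.20-fold. Arc, an activity-regulated gene known from neurons, was the gene that rose (4.77). Against 8.77% of all genes that rose and 9.36% that fell, 2 of 13 KLF genes fell and 1 rose, 1 of 14 partners fell, and 5 of 19 upstream genes fell, among them Rps6ka3 (-3.34) and Srf (-2.01). No gene of these 5 lists changed 4-fold in leptotene/zygotene cells over spermatogonia.

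**Figure D5:**
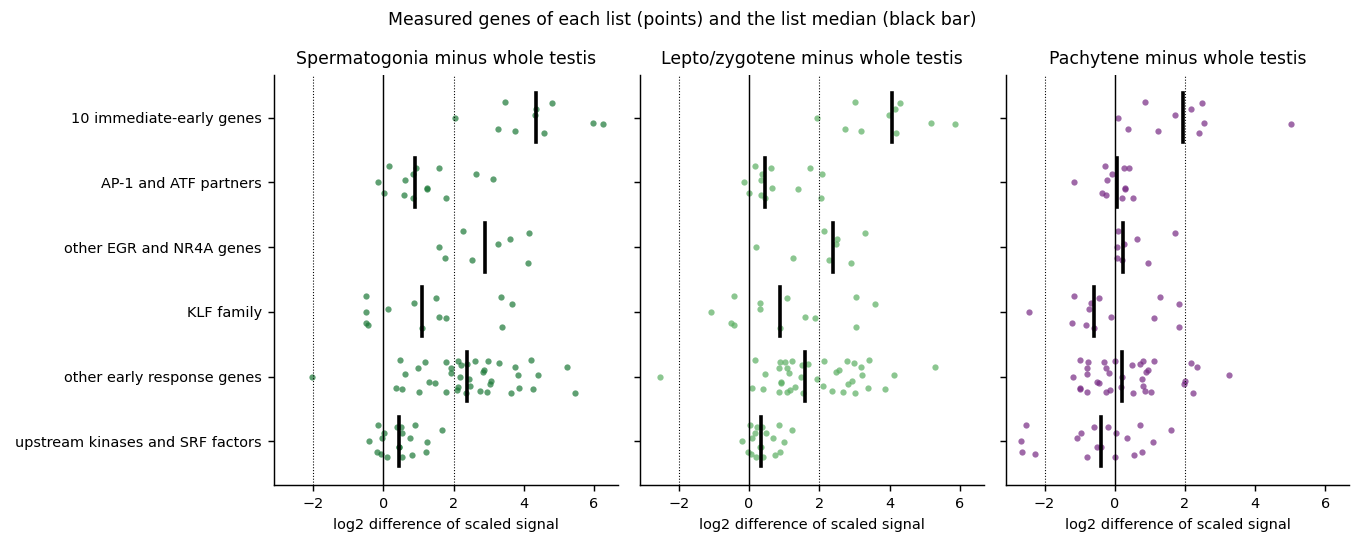
Log2 difference of scaled signal over whole testis for each measured gene of 6 lists (points) in spermatogonia, leptotene/zygotene and pachytene fractions, with the list median as a black bar and dotted lines at 4-fold. The 10 members have medians of 4.34, 4.06 and 1.94 in the 3 fractions, and the upstream kinases and SRF factors 0.45, 0.33 and -0.38.

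The non-member genes whose profiles lay nearest to the members' median profile are listed here as a description. Over the 5 arrays of the first design and 10472 genes, by root mean square distance of centred log2 signal, they were Zfp36 (0.21), Nfkbiz (0.25), Rhob (0.29), Dusp1 (0.32), Klf2 (0.40), Ccn1 (0.40), Cebpd (0.40) and Nr4a1 (0.42). Zfp36 read 4888 in spermatogonia, 3367 in leptotene/zygotene cells, 1042 in pachytene cells, 231 in whole testis and 571 in the somatic mix. Jund (0.86) and Fos (1.11) lay furthest from the members' median among the members, Jund with the narrowest span and Fos with the widest.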

How the data were processed

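RNA was measured in 10 samples, 5 groups of 2, on 2 Affymetrix array designs, each hybridised with 5 samples. The authors deposited 1 linear intensity for each probe set. Per the labels, RNA was amplified and labelled as biotinylated cRNA, and per the submitters' processing notes GCOS 1 was used. For the scaling, the detection calls and whether samples 1 and 2 of a group were separate preparations, nothing is given in the sources used here.

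Arrays of a design were brought to a common 2% trimmed mean. The floor was the 90th percentile of 71 chemosensory receptor probe sets, or the median of all where fewer than 20 such probe sets were present, as on the second design (15). Symbols came from the platform annotation, updated through Entrez identifiers where they matched (20364 of 20393 single-gene probe sets on the first design and 14499 of 14674 on the second). Probe sets naming several genes (691 and 245) or none (1542 and 7592) were left out. Where a gene had several probe sets, the brightest by mean log2 signal was read, on the first design where it was above the floor there. Genes under the floor on both arrays of a comparison were not measured in it.

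A difference is that of log2 scaled signal between 2 arrays of a design. Its error comes from 100 probe sets on both designs (root mean square of the gap between designs, over the square root of 2), and 1.96 times it is the 95% limit. With 1 array per group and design there was no test. The members and lists were chosen with earlier results of these data known. Named besides the members are at most 3 genes called in each direction per list and comparison, and the 8 nearest profiles. Scaling, floor, probe set and design choices were varied, and the code was tested on simulated data. Python 3.11.15, numpy 2.4.6 and pandas 2.3.3 were used.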

Additional observations from a re-analysis of the deposited data

How the results depend on the processing

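No paired analysis was possible because the values come from no test and each probe set had 1 array per group. The differences of the members were recomputed under other scalings, floors, probe set rules and designs. Of 631 recomputed values 468 stayed within the error, 162 moved beyond it and 1 reversed. The 468 include 69 from leaving out the second design, which could not differ because all 10 members were read on the first. Where the first design was left out, 2 values stayed within the error, 9 moved and 1 reversed. With the second design alone, which holds only Jund and Klf6, Jund in spermatogonia over whole testis was -0.20, against 2.05 with the first alone. Leaving out each design's samples in turn, the members that rose over whole testis ranged from 1 to 10 in spermatogonia, from 1 to 9 in leptotene/zygotene and from 0 to 5 in pachytene cells. Those that fell ranged from 1 to 3 in pachytene over leptotene/zygotene cells and from 1 to 7 in pachytene cells over spermatogonia. The low ends come from the second design, which holds only these 2 genes. On it Klf6 rose over whole testis in spermatogonia and in leptotene/zygotene cells. Jund, with signals around the floor there, did not (-0.20 and at most -0.47).

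In pachytene over leptotene/zygotene cells 8 members fell with the values as deposited, against 3 after scaling. In pachytene cells over whole testis 5 rose, but 2 with the floor raised 1.5 times, 2 with log2 of the signal plus the floor, and 2 with the somatic mix in place of whole testis. In whole testis over the somatic mix 1 fell under quantile normalization, 1 with scaling to the shared probe sets and 1 with the floor at 0.5 times its level, against 0. The causes were not tested. Scaling moved the median of all genes above the floor in both arrays: in pachytene over leptotene/zygotene cells it was -0.25, but 0.06 under median scaling and -0.07 under quantile normalization.

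Precision is limited by 1 array per group and by the floor, which makes 5 of 10 differences over whole testis lower bounds.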

Other observations

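Arc was the gene of the early response list that fell in spermatogonia over whole testis, and also the gene of that list that rose in pachytene over leptotene/zygotene cells. Its signal was 132 in spermatogonia and 537 in whole testis, and 2535 in pachytene and 92.6 in leptotene/zygotene cells. The log2 differences were -2.03 and 4.77. Klf1, a Krüppel-like factor known from red blood cell precursors, was the KLF gene that rose at least 4.80-fold in pachytene cells (419) over leptotene/zygotene cells (77.1, under the floor).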
